A study of Gallus gallus with 6 samples.

Results

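Troponins and tropomyosins, the proteins that set the calcium switch on the actin filament of muscle, were described in chicken primary myoblasts, which are muscle precursor cells taken from leg muscle. The members are the 10 genes TNNC1, TNNC2, TNNI1, TNNI2, TNNT1, TNNT2, TNNT3, TPM1, TPM2 and TPM3, chosen by gene symbol from the 24433 genes of the expression table, in which each of the 10 occurs once. Polyadenylated RNA was sequenced from 3 libraries of myoblasts with ANKRD9 overexpression and 3 libraries of myoblasts with pcDNA3.1, a plasmid used to express genes in animal cells. The study concerned ANKRD9, an ankyrin repeat protein, in the metabolism of inosine monophosphate. The labels give no breed, age, means or time of overexpression, or culture stage, and do not state whether each library is a culture of its own. The p-values therefore cover the spread among these 6 libraries, and that spread may be technical.

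Troponin is a complex of a calcium-binding subunit (troponin C), an inhibitory subunit (troponin I) and a subunit that anchors the complex to tropomyosin (troponin T). Tropomyosin is a coiled coil that lies along the actin filament, and when calcium binds troponin C the complex lets tropomyosin move away from the sites where myosin heads attach. Vertebrate muscle has separate genes for slow and fast fibres and for heart, and embryonic skeletal muscle is known to use the cardiac troponin T gene for a time. The tropomyosin genes also make shorter isoforms for the cytoskeleton of cells that are not muscle, and values per gene do not separate these isoforms.

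Expression was given as FPKM, fragments scaled to gene length and library total. The 6 libraries corresponded to between 16158627 and 26310089 whole reads, and each member rested on 442 to 45348 reads per library. ANKRD9 itself reached 98.7 ± 7.26 FPKM in the ANKRD9 libraries and 9.24 ± 0.984 FPKM in the pcDNA3.1 libraries (SD, n = 3 each), a 10.7-fold difference that follows the labels. The summed level of 8 myoblast markers was 854 to 945 FPKM with ANKRD9 and 862 to 894 FPKM with pcDNA3.1. Among them MYF5 was the most abundant, at 285 to 396 FPKM, and ITGA7 the least, at 0.835 to 1.20 FPKM. Of the 8, 2 were called higher and 3 lower, where 16.3% of all genes tested were called higher and 2310 of 11685 lower. A list of 10 fibroblast markers summed to more, 1653 to 1790 FPKM with ANKRD9 and 2061 to 2115 FPKM with pcDNA3.1. A difference in the number of cells of a type and a difference in RNA per cell cannot be told apart in these bulk samples.

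Among the troponin genes, TNNT1, TNNT2 and TNNC1 rose 1.55-fold, 1.27-fold and 1.28-fold, and the other 7 members did not pass the test. The means of the 7 troponin genes were all higher with ANKRD9, by 1.17-fold to 1.55-fold, whereas those of TPM1, TPM2 and TPM3 were 1.06, 1.06 and 0.953 times the pcDNA3.1 mean. The test was limma on log2(FPKM + 1) with Benjamini-Hochberg adjustment over the 11685 genes that averaged 1 FPKM or more, and a threshold of 0.05. All 10 members were tested, and none had a value under 26.7 FPKM in any library. Across all genes tested, 16.3% were called higher and 36.0% were called in either direction, against 3 of 10 members called higher and 0 called lower. The median log2 fold change of the members was 0.28, and that of all genes tested was -0.01. The number of members called higher varied with the method. It was 7 (all 7 troponin genes) when limma's voom was run on the recovered whole reads, and 1 (TNNT1) when both libraries numbered 1 were left out.

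**Figure D1:**
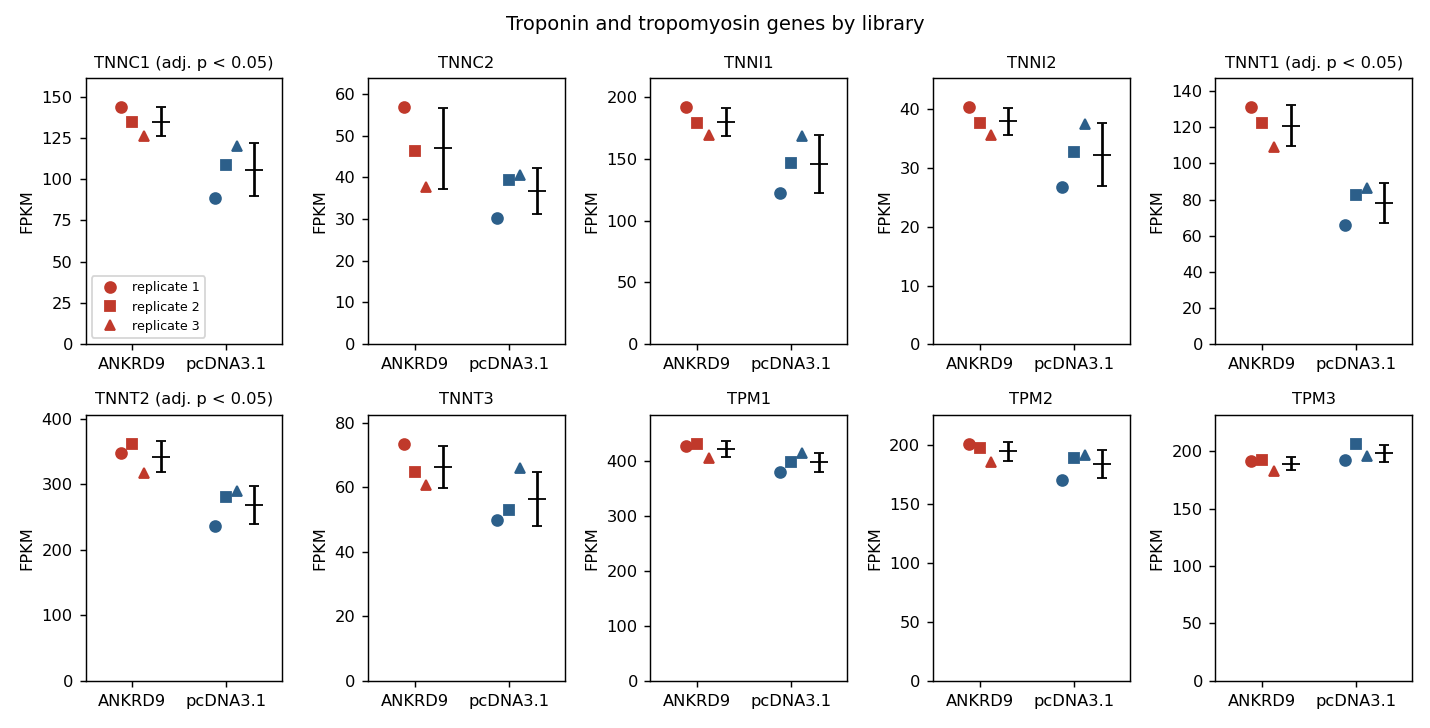
FPKM of each member (vertical axes, each from 0) in the 3 ANKRD9 and the 3 pcDNA3.1 libraries; symbols mark the replicate, and black bars the mean and SD. TNNT1, TNNT2, TNNC1 and TNNI1 have all ANKRD9 values above all pcDNA3.1 values, while the tropomyosin panels overlap.

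In troponin T, which anchors the complex, TNNT1 and TNNT2 passed and TNNT3 did not. TNNT1, the slow skeletal troponin T gene, had 131, 123 and 109 FPKM in the ANKRD9 libraries, against 65.7, 82.5 and 86.4 FPKM in the pcDNA3.1 libraries. The groups did not overlap. On the log2 scale TNNT1 changed by 0.63 ± 0.11 (SE, 95% interval 0.38 to 0.88; limma, adjusted p = 0.00444), the largest of the 10 members, and it passed the threshold in each of the 17 alternative fits.

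TNNT2, the cardiac troponin T gene, was the most abundant troponin gene, at 348, 362 and 317 FPKM in the ANKRD9 libraries, against 236, 280 and 289 FPKM in the pcDNA3.1 libraries. Here too every ANKRD9 library lay above every pcDNA3.1 library. On the log2 scale TNNT2 was 0.35 ± 0.09 higher (SE; limma, adjusted p = 0.0163). The call was lost without ANKRD9 replicate 1 (limma, adjusted p = 0.0540), without ANKRD9 replicate 2 (limma, adjusted p = 0.0633), without both libraries numbered 1 and without a filter.

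TNNT3, the fast skeletal troponin T gene, had 73.5, 64.7 and 60.5 FPKM in the ANKRD9 libraries, against 49.96, 53.1 and 65.9 FPKM in the pcDNA3.1 libraries. The ranges overlapped because pcDNA3.1 replicate 3 stood above ANKRD9 replicates 2 and 3. The log2 fold change of 0.24 ± 0.11 (SE) did not pass (limma, adjusted p = 0.132), and its 95% interval ran from -0.02 to 0.49. Without pcDNA3.1 replicate 3 it was 0.35 and passed (limma, adjusted p = 0.0259). Without pcDNA3.1 replicate 1 it was 0.16, and without both libraries numbered 1 it was 0.08. Neither of these passed (limma, adjusted p = 0.310 and 0.599).

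In troponin C, the calcium sensor, TNNC1 passed and TNNC2 did not. TNNC1, the slow skeletal and cardiac gene, had 144, 135 and 126 FPKM in the ANKRD9 libraries, against 88.4, 109 and 120 FPKM in the pcDNA3.1 libraries. The groups were apart, with pcDNA3.1 replicate 3 close below the lowest ANKRD9 library. On the log2 scale TNNC1 was 0.36 ± 0.11 higher (SE; limma, adjusted p = 0.0349). This call held in 11 of the 17 alternative fits, the fewest of the 3. Among the fits that lost it were those without ANKRD9 replicate 1, ANKRD9 replicate 2 or pcDNA3.1 replicate 2 (limma, adjusted p = 0.109, 0.0908 and 0.0608), without a filter and without both libraries numbered 1, where the log2 fold change was 0.19.

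TNNC2, the fast skeletal troponin C gene, had 56.9, 46.3 and 37.6 FPKM in the ANKRD9 libraries, against 30.3, 39.4 and 40.4 FPKM in the pcDNA3.1 libraries. ANKRD9 replicate 3 lay below 2 of the 3 pcDNA3.1 libraries, and the coefficient of variation among the ANKRD9 libraries, 20.6%, was the highest of any member in that group. The log2 fold change of 0.34 ± 0.16 (SE) was close to the 0.36 of TNNC1 but did not pass (limma, adjusted p = 0.136). Without ANKRD9 replicate 3 it was 0.48 and passed (limma, adjusted p = 0.0419). It was 0.19 without ANKRD9 replicate 1, 0.21 without pcDNA3.1 replicate 1 and 0.06 without both libraries numbered 1. None of these passed (limma, adjusted p = 0.357, 0.327 and 0.667).

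Neither member of troponin I, the inhibitory subunit, passed. TNNI3, another troponin I gene, was not found by that symbol in the expression table. TNNI1, the slow skeletal gene, had 192, 179 and 169 FPKM in the ANKRD9 libraries, against 122, 146 and 169 FPKM in the pcDNA3.1 libraries. The groups touched without overlapping, at 169.5 FPKM in ANKRD9 replicate 3 and 168.8 FPKM in pcDNA3.1 replicate 3. TNNI1 had a log2 fold change of 0.31 ± 0.11 (SE), just short of the threshold (limma, adjusted p = 0.0592). It passed without pcDNA3.1 replicate 3 (limma, adjusted p = 0.0174) and when the filter was raised to 5 FPKM (limma, adjusted p = 0.0451). The log2 fold change was 0.19 without pcDNA3.1 replicate 1 and 0.15 without both libraries numbered 1. Neither of these passed (limma, adjusted p = 0.0942 and 0.207).

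TNNI2, the fast skeletal gene, had 40.4, 37.7 and 35.7 FPKM in the ANKRD9 libraries, against 26.7, 32.7 and 37.5 FPKM in the pcDNA3.1 libraries. The ranges overlapped through pcDNA3.1 replicate 3. TNNI2 had a log2 fold change of 0.24 ± 0.11 (SE) and did not pass (limma, adjusted p = 0.135). Without pcDNA3.1 replicate 3 the change was 0.35 and passed (limma, adjusted p = 0.0361). It was 0.11 without pcDNA3.1 replicate 1 and 0.07 without both libraries numbered 1. Neither of these passed (limma, adjusted p = 0.285 and 0.540).

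The tropomyosins differed little. TPM1, the gene of alpha-tropomyosin, was the most abundant member and ranked 164th of all 24433 genes by mean FPKM, with 428, 432 and 406 FPKM in the ANKRD9 libraries, against 380, 399 and 415 FPKM in the pcDNA3.1 libraries. TPM2, the gene of beta-tropomyosin, had 201, 197 and 185 FPKM in the ANKRD9 libraries, against 170, 189 and 191 FPKM in the pcDNA3.1 libraries. The groups overlapped for both genes.

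TPM3, the gene of the tropomyosin of slow fibres and of many non-muscle cells, had 192, 193 and 183 FPKM in the ANKRD9 libraries, against 192, 207 and 196 FPKM in the pcDNA3.1 libraries. It was the one member with a lower mean with ANKRD9, and its ranges also overlapped. The log2 fold changes were 0.08 ± 0.05 for TPM1, 0.08 ± 0.06 for TPM2 and -0.07 ± 0.04 for TPM3 (SE), with adjusted p between 0.214 and 0.290 (limma). Their 95% intervals reached from -0.17 at the lowest to 0.22 at the highest, so a change in either direction beyond these bounds lay outside the interval of every tropomyosin member. TPM1 passed under quantile scaling (log2 fold change 0.12; limma, adjusted p = 0.0255), and TPM3 was negative and TPM1 and TPM2 positive under all 17 alternatives.

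TPM4, the remaining tropomyosin gene and not one of the 10, was listed at 0.545, 0.560 and 0.604 FPKM in the ANKRD9 libraries and at 0.584, 0.460 and 0.657 FPKM in the pcDNA3.1 libraries. It lay under the filter and so was not tested; in a fit with no filter it differed by a log2 fold change of 0.00 ± 0.06 (SE; limma, adjusted p = 0.972). The table gives TPM4 a length of 13122 bases, and it overlaps RAB8A on the same strand.

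**Figure D2:**
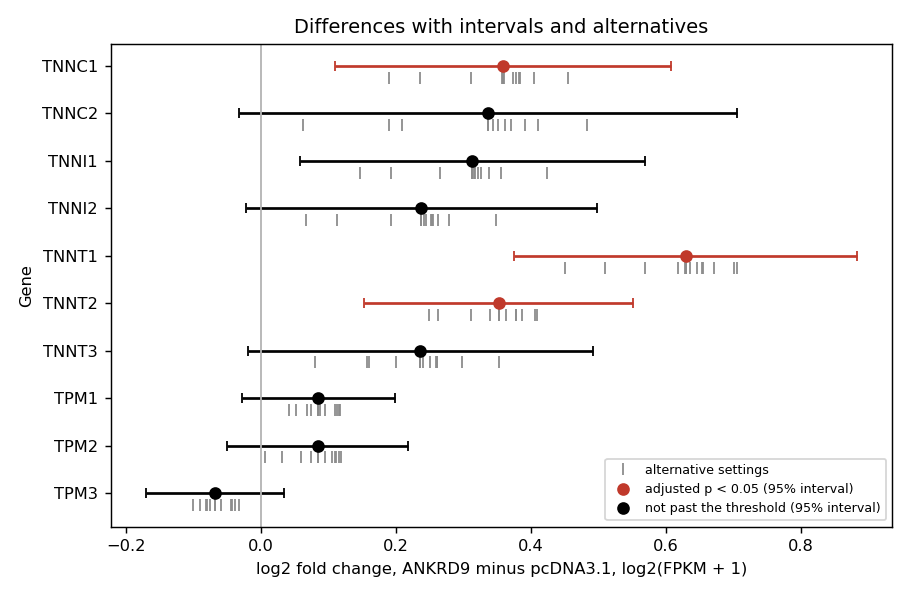
Log2 fold change of each member, ANKRD9 minus pcDNA3.1, on the log2(FPKM + 1) scale with its 95% interval; grey ticks are the values under 17 alternative settings. TNNT1 lies farthest to the right at 0.63, the troponins are all above 0, and the tropomyosins stand within 0.09 of 0.

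All ANKRD9 values lay above all pcDNA3.1 values for 4 members, TNNT1, TNNT2, TNNC1 and TNNI1, where 23.7% of all genes tested did so. For these 4 an exact two-sided permutation test of log2(FPKM + 1) gave p = 0.1 (n = 3 each), the smallest value that 3 libraries against 3 allow, and for the other 6 it gave an exact p of 0.2 or 0.3.

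The troponin genes also moved together between libraries of the same group. In pcDNA3.1 replicate 1 all 7 troponin genes had their lowest value of the 6 libraries, a position that this library held for 21.2% of all genes tested. Within the pcDNA3.1 group replicate 3 was the highest for all 7, against 27.1% of all genes tested, and within the ANKRD9 group replicate 3 was the lowest for all 7, against 33.8% of all genes tested. ANKRD9 replicate 1 was the highest of the 6 libraries for 6 of the 7, the exception being TNNT2, against 17.4% of all genes tested. The tropomyosin genes shared most of this order. Over all 10 members, pcDNA3.1 replicate 1 was the lowest of the 6 libraries for 9, all but TPM3. Within their groups, pcDNA3.1 replicate 1 and ANKRD9 replicate 3 were the lowest for all 10, against 37.1% and 33.8% of all genes tested. In the pcDNA3.1 group replicate 3 was the highest for 9, against 27.1% of all genes tested.

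The spread this gave within the pcDNA3.1 group was of the same order as the difference between the groups. In pcDNA3.1 replicate 3 the troponin genes stood 1.23 to 1.40 times their level in pcDNA3.1 replicate 1, whereas TPM1, TPM2 and TPM3 stood at 1.09, 1.13 and 1.02 times. The coefficient of variation among the pcDNA3.1 libraries was between 10.7% and 16.7% for the troponin genes and between 3.74% and 6.35% for the tropomyosin genes.

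**Figure D3:**
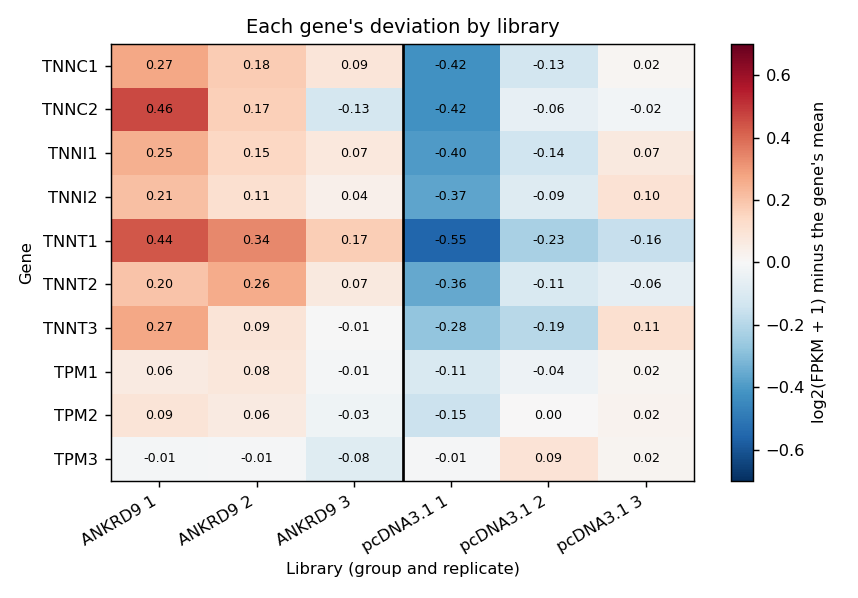
Deviation of each member's log2(FPKM + 1) from its own mean over the 6 libraries (colour and printed value), genes in rows and libraries in columns, the black line parting the groups. The column of pcDNA3.1 replicate 1 is the lowest for all 7 troponin genes, down to -0.55 for TNNT1, and for TPM1 and TPM2. The tropomyosin rows stay between -0.15 and 0.09.

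Levels per length differed more between members than between groups. In the ANKRD9 libraries the order by mean FPKM was TPM1, TNNT2, TPM2, TPM3, TNNI1, TNNC1, TNNT1, TNNT3, TNNC2 and TNNI2. In the pcDNA3.1 libraries it was the same apart from TPM3 standing ahead of TPM2. Neighbours whose ranges overlapped in the ANKRD9 libraries were TPM2 and TPM3, TPM3 and TNNI1, TNNC1 and TNNT1, and TNNC2 and TNNI2. In the pcDNA3.1 libraries they were TNNT1 and TNNT3, and TNNC2 and TNNI2.

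In FPKM, a slow or cardiac gene was the most abundant of each troponin subunit; as a share of reads this did not hold for troponin I, where TNNI2 had 50.5% with ANKRD9 and 51.7% with pcDNA3.1. Within troponin I, TNNI1 held 82.6% of the summed FPKM in each of the ANKRD9 libraries, and 82.0%, 81.7% and 81.8% in the pcDNA3.1 libraries. This ratio was nearly fixed while the summed troponin I level ran from 205 to 232 FPKM with ANKRD9 and from 149 to 206 FPKM with pcDNA3.1. The groups did not overlap in this share, although they differed by under a percentage point.

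Within troponin C, TNNC1 held 71.7%, 74.4% and 77.1% of the summed FPKM in the ANKRD9 libraries, against 74.5%, 73.4% and 74.8% in the pcDNA3.1 libraries. The share varied within the ANKRD9 group by more than it differed between the group means, 74.4 ± 2.70% and 74.2 ± 0.745% (SD, n = 3 each).

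Within troponin T the slow gene took a larger share with ANKRD9. TNNT1 held 23.8%, 22.3% and 22.4% in the ANKRD9 libraries, against 18.7%, 19.8% and 19.6% in the pcDNA3.1 libraries, and these ranges were apart. TNNT2 held 64.7 ± 1.54% and 66.7 ± 1.02%, and TNNT3 held 12.5 ± 0.764% and 14.0 ± 1.10%, in the ANKRD9 and pcDNA3.1 libraries (SD, n = 3 each). Both of these overlapped between the groups. Shares within a subunit add up to the whole and are not independent, and none was tested.

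Within tropomyosin, TPM3 held 23.4%, 23.5% and 23.6% of the summed FPKM in the ANKRD9 libraries, against 25.9%, 26.0% and 24.5% in the pcDNA3.1 libraries. TPM1 held 52.4 ± 0.229% and 51.0 ± 0.738%, and TPM2 held 24.1 ± 0.311% and 23.5 ± 0.523%, in the same order of groups (SD, n = 3 each). The ranges were apart for all 3 genes, by margins that were small beside the shares themselves. Adding TPM4, whose share was 0.0709 ± 0.00626% with ANKRD9 and 0.0728 ± 0.0130% with pcDNA3.1 (SD, n = 3 each), did not alter which ranges were apart.

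Shares of FPKM depend on the gene lengths of the table. TNNI2 is given 4953 bases and TNNI1 1023 bases, and as a share of reads TNNI1 held 49.5 ± 0.0367% in the ANKRD9 libraries and 48.3 ± 0.270% in the pcDNA3.1 libraries (SD, n = 3 each). The level of TNNI2 relative to TNNI1 therefore rests on that length, whereas the comparison between groups does not.

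**Figure D4:**
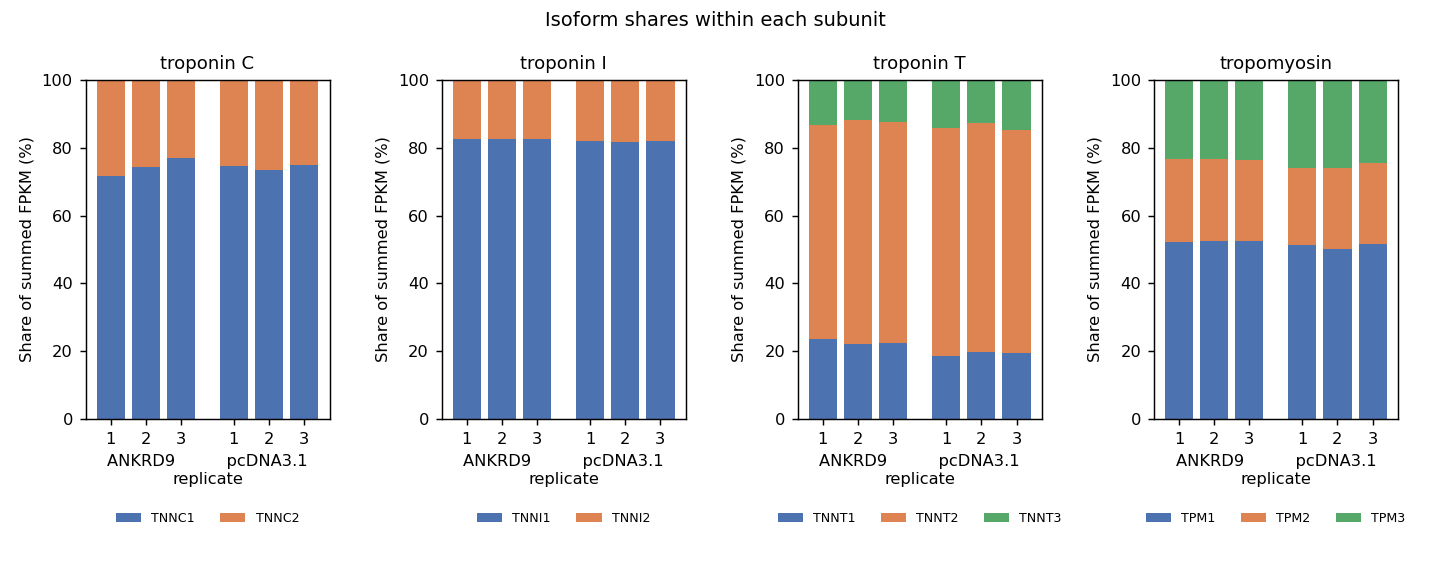
Share of each gene in the summed FPKM of its subunit (vertical axis, percent, from 0 to 100) in each library, ANKRD9 libraries left and pcDNA3.1 libraries right. The TNNI1 share is nearly constant at about 82%, and the TNNT1 share is above 22% in every ANKRD9 library and below 20% in every pcDNA3.1 library.

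The members lie on 8 chromosomes or scaffolds of GRCg6a, with pairs that neighbour each other. TNNI1 (chromosome 26: 788703-794167) and TNNT2 (chromosome 26: 805789-816153) lie on the plus strand with 11621 bases between them, a gap that holds LAD1. LAD1 rose 1.22-fold, to 6.57 ± 0.563 FPKM with ANKRD9, against 5.37 ± 0.458 FPKM with pcDNA3.1 (SD, n = 3 each; limma, adjusted p = 0.0421). TNNT3 (chromosome 5: 14207179-14241384) and TNNI2 (chromosome 5: 14291354-14301164) lie on the minus strand with 49969 bases between them. LSP1, which lies in that gap, had 125 ± 4.32 FPKM with ANKRD9 and 127 ± 6.79 FPKM with pcDNA3.1 and did not pass (SD, n = 3 each; limma, adjusted p = 0.796).

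TNNT1 lies on an unplaced scaffold (67977-71026, minus strand), 155 bases from PPP1R12C on the same strand. PPP1R12C, which encodes a regulatory subunit of a protein phosphatase, rose 1.17-fold, to 46.4 ± 3.04 FPKM with ANKRD9, against 39.5 ± 2.59 FPKM with pcDNA3.1 (SD, n = 3 each; limma, adjusted p = 0.0291). On its other side KMT5C had 32.6 ± 1.69 FPKM with ANKRD9 and 31.5 ± 3.13 FPKM with pcDNA3.1 and did not pass (limma, adjusted p = 0.626). Elsewhere, neither RPL29 nor NISCH beside TNNC1 passed (limma, adjusted p = 0.108 and 0.747). Beside TPM3, which was not called, NUP210L and C25H1ORF43 were higher (limma, adjusted p = 0.0182 and 0.0207). NUP210L averaged 1.30 FPKM with ANKRD9 and 0.823 FPKM with pcDNA3.1, so it reached the filter of 1 FPKM only through the ANKRD9 libraries. TLN2, 69747 bases from TPM1, and TLN1 beside TPM2 were lower (limma, adjusted p = 0.00103 and 0.0280). LACTB beside TPM1 and SNX21 beside TNNC2 were higher (limma, adjusted p = 0.0338 and 0.0307). LOC107054848, 54 bases from TNNC2 on the same strand, and PHLDA3 beside TNNI1 did not pass (limma, adjusted p = 0.177 and 0.148). Nor did MRPL23 beside TNNT3 and APH1AL beside TPM2 (limma, adjusted p = 0.910 and 0.0592). Of all genes tested, 36.0% were called in either direction. Of the remaining members, TNNC1 lies on chromosome 12: 975844-981282, TNNC2 on chromosome 20: 10510924-10512722, TPM1 on chromosome 10: 4617827-4636539, TPM2 on chromosome Z: 9207199-9218220 and TPM3 on chromosome 25: 2866146-2882183. TPM1 is the one member that overlaps another gene, LOC107052132 on the opposite strand, and as the counting strand is not given, reads from the 2 genes may be mixed. LOC107052132 had 10.9 ± 1.51 FPKM with ANKRD9 and 11.6 ± 4.11 FPKM with pcDNA3.1 (SD, n = 3 each).

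The genes whose levels were most like those of TNNT1 over the 6 libraries were PRELID3A, TGFB2 and CHST6, with Pearson's r of 0.997, 0.995 and 0.994 among 6076 named genes that averaged 10 FPKM or more. For TNNC1 they were CTSK, TXNL4A and ASNSD1 (r of 0.997, 0.997 and 0.996), and for TNNT2 they were AKAP8L, CIAPIN1 and ZPR1 (r of 0.994, 0.994 and 0.989). These coefficients describe 6 points that share the difference between groups, and r was over 0.95 for 219, 57 and 110 genes in the 3 searches. With each group's mean removed, r of the named genes still ran from 0.964 (CHST6) to 0.9997 (PRELID3A), in genes picked for a high r. The differences of these genes were smaller than those of the members they resemble, from 1.09-fold for CTSK, the gene of the protease cathepsin K, to 1.34-fold for PRELID3A. TGFB2, the gene of a transforming growth factor, had 125 ± 4.45 FPKM with ANKRD9 and 99.7 ± 8.17 FPKM with pcDNA3.1 (SD, n = 3 each).

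Of 10 tested partners of troponin and tropomyosin on the sarcomeric thin filament, 4 were called higher, 1 lower and 5 did not pass, with a median log2 fold change of 0.14. Of all 11685 genes tested, 16.3% were called higher, 2310 genes lower, and 36.0% in either direction. Of 15 partners listed, 14 were in the expression table, and NEB was not found in it under that symbol. LMOD3, NEBL, KBTBD13 and XIRP2 lay under the filter and were not tested. LMOD2, the gene of an actin nucleator at the filament's pointed end, rose 1.23-fold, to 25.0 ± 1.46 FPKM with ANKRD9, against 20.4 ± 1.03 FPKM with pcDNA3.1 (SD, n = 3 each). NRAP, for a protein of myofibril assembly, rose 1.53-fold to 1.54 ± 0.190 FPKM, and TMOD4, for a pointed-end cap that binds tropomyosin, rose 1.37-fold to 3.23 ± 0.229 FPKM. CFL2, for the muscle form of the filament-severing cofilin, was lower, at 64.0 ± 0.477 FPKM against 71.7 ± 0.970 FPKM. The adjusted p of these 4 lay between 0.00823 and 0.0340 (limma). The number called higher dropped to 1 without ANKRD9 replicate 1, ANKRD9 replicate 3, pcDNA3.1 replicate 2 or both libraries numbered 1.

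The sarcomeric actins did not pass. ACTC1, the cardiac actin gene that embryonic skeletal muscle also uses, had 701, 656 and 625 FPKM in the ANKRD9 libraries, against 558, 612 and 663 FPKM in the pcDNA3.1 libraries. ACTA1, the skeletal actin gene, had 51.4, 45.8 and 42.3 FPKM in the ANKRD9 libraries, against 34.6, 41.2 and 46.5 FPKM in the pcDNA3.1 libraries. For both actins pcDNA3.1 replicate 1 was the lowest and ANKRD9 replicate 1 the highest of the 6 libraries, as for most troponins. Over the 10 tested thin filament partners, pcDNA3.1 replicate 1 was the lowest for 5 and ANKRD9 replicate 1 the highest for 7. These libraries held those places for 21.2% and 17.4% of all genes tested.

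Thick filament and M-band genes had 3 of 10 tested members higher, none lower and 7 that did not pass, with a median log2 fold change of 0.17. Beside this, 16.3% of all genes tested were called higher. Of 22 genes listed, 20 were in the table, and the titin gene TTN and MYBPC2 were not found in it under these symbols. Among the tested genes pcDNA3.1 replicate 1 was the lowest of the 6 libraries for all 10. MYOM3, for a protein of the M-band, rose 1.26-fold, to 27.2 ± 0.295 FPKM with ANKRD9, against 21.6 ± 1.19 FPKM with pcDNA3.1 (SD, n = 3 each; limma, adjusted p = 0.00244). MYOM2 rose 1.34-fold and MYH1D, a myosin heavy chain gene with near-identical copies in the genome, 1.40-fold (limma, adjusted p = 0.0385 and 0.0190), and the value of MYH1D is uncertain where reads of such copies were split. MYOM1 had 8.85 ± 0.468 FPKM with ANKRD9 and 7.89 ± 0.885 FPKM with pcDNA3.1 (limma, adjusted p = 0.172). Without both libraries numbered 1, a single gene of this list was called higher.

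Cytoskeletal and smooth muscle partners had 4 of 12 tested members lower, 2 higher and 6 that did not pass, and a median log2 fold change of -0.09. Beside this, 2310 of all 11685 genes tested were called lower and 16.3% higher. Within the pcDNA3.1 group replicate 1 was the lowest for 10 of these 12 partners too, against 37.1% of all genes tested. ACTA2, the smooth muscle alpha-actin gene, was lower at 96.8 ± 4.96 FPKM with ANKRD9, against 125 ± 4.94 FPKM with pcDNA3.1 (SD, n = 3 each; limma, adjusted p = 0.00197). ACTG2, the enteric smooth muscle actin gene, CNN2, for a calponin, and LMOD1, for the smooth muscle leiomodin, were lower as well, with log2 fold changes of -0.34, -0.25 and -0.38 (limma, adjusted p between 0.00588 and 0.0107). Both members called higher, ACTG1 and CNN1, lost the call in some of the alternative fits, with a count of 0 without ANKRD9 replicate 1, ANKRD9 replicate 2, pcDNA3.1 replicate 1 or pcDNA3.1 replicate 3.

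Muscle transcription factors were split, with 3 of 15 tested members higher, 3 lower and 9 that did not pass. Beside this, 36.0% of all genes tested were called in either direction. MYOD1, a determination factor of myoblasts, was lower at 116 ± 11.3 FPKM with ANKRD9, against 199 ± 6.77 FPKM with pcDNA3.1 (SD, n = 3 each; limma, adjusted p = 0.000312), while MYF5 rose to 370 ± 22.3 FPKM with ANKRD9, against 296 ± 14.8 FPKM with pcDNA3.1, and MYF6 rose 1.23-fold (limma, adjusted p = 0.00517 and 0.00260). MKL1, a coactivator of serum response factor, rose 1.21-fold (limma, adjusted p = 0.00355). MYOG, the differentiation factor myogenin, had 170, 167 and 152 FPKM in the ANKRD9 libraries, against 142, 151 and 164 FPKM in the pcDNA3.1 libraries, and did not pass (limma, adjusted p = 0.292).

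Regulators tied to fibre type had 1 of 10 tested members higher, 4 lower and 5 that did not pass. Beside this, 2310 of all 11685 genes tested were called lower. PRDM1, a repressor needed for slow fibres in zebrafish, rose 1.63-fold, to 8.72 ± 0.850 FPKM with ANKRD9, against 5.33 ± 0.403 FPKM with pcDNA3.1 (SD, n = 3 each; limma, adjusted p = 0.00139). PPP3CA, a catalytic subunit of the calcium-activated phosphatase calcineurin, NFATC3, a transcription factor that calcineurin activates, and RCAN1, a calcineurin regulator, were lower, with log2 fold changes of -0.15, -0.21 and -0.19 (limma, adjusted p between 0.0123 and 0.0262). NFATC2, the other gene called lower, had -0.29. It averaged 0.942 FPKM with ANKRD9 and 1.38 FPKM with pcDNA3.1, so it reached the filter of 1 FPKM only through the pcDNA3.1 libraries. PPP3CB and NFATC1, of the same list, were positive at 0.13 and 0.14 and did not pass (limma, adjusted p = 0.0579 and 0.163). The number called lower in this list was 1 without ANKRD9 replicate 2 or pcDNA3.1 replicate 2, and 0 without both libraries numbered 1.

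**Figure D5:**
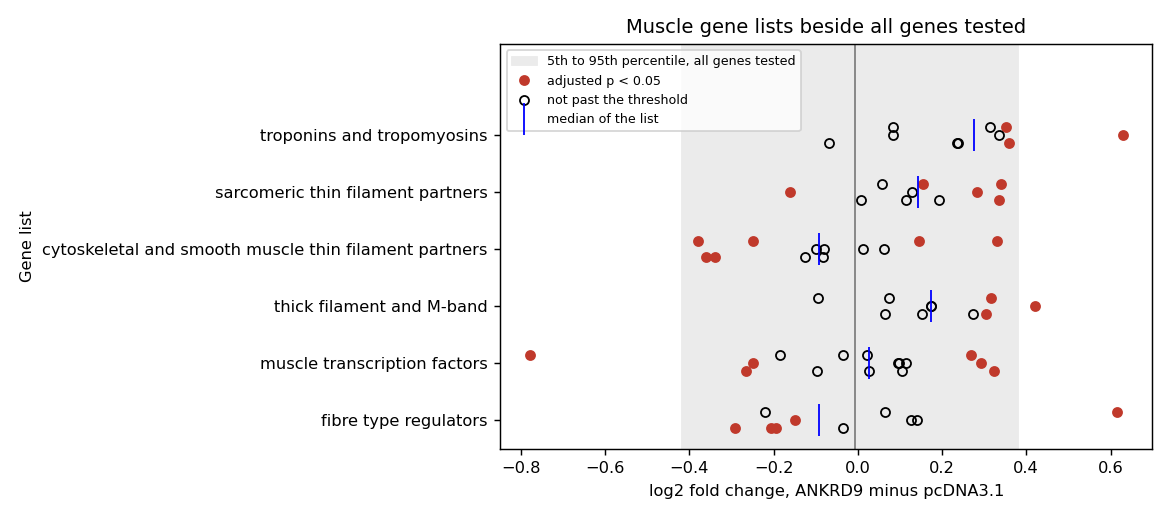
Log2 fold changes, ANKRD9 minus pcDNA3.1, of the tested genes of each list (points, filled where the adjusted p is under 0.05; blue ticks are list medians), beside the 5th to 95th percentile of all genes tested (grey). The medians are 0.28 for the troponins and tropomyosins, 0.14 and 0.17 for the sarcomeric lists and -0.09 for the cytoskeletal and smooth muscle list.

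The summed levels of fibroblast, leukocyte and adipocyte markers were apart between the groups, and those of smooth muscle, endothelial, erythroid and cardiac markers overlapped. Of 9 tested fibroblast markers 7 were lower and 1 higher, where 2310 of all 11685 genes tested were lower and 16.3% higher. The summed level of the list was 1653 to 1790 FPKM with ANKRD9 and 2061 to 2115 FPKM with pcDNA3.1. TCF21 was at 0 in 5 libraries and at 0.0442 FPKM in ANKRD9 replicate 3. Leukocyte markers summed to 18.4 to 21.9 FPKM with ANKRD9 and 13.0 to 15.8 FPKM with pcDNA3.1, with 2 of 4 tested higher, and adipocyte markers to 18.7 to 19.3 FPKM and 15.2 to 16.1 FPKM, with 2 of 3 tested higher. Smooth muscle markers summed to 40.9 to 44.0 FPKM and 39.2 to 41.4 FPKM, endothelial markers to 7.09 to 7.73 FPKM and 6.50 to 7.49 FPKM, and erythroid markers to 0.0990 to 0.352 FPKM and 0.212 to 0.383 FPKM. The smooth muscle and endothelial sums held calls in both directions, while no erythroid marker reached the filter. Of 5 erythroid markers listed, 2 were found in the expression table by symbol, as were 5 of 6 leukocyte and 5 of 7 cardiac markers. The sums leave out the markers not found, whose levels are not known. Of 5 tested smooth muscle markers CNN1 was higher and PDGFRB lower, and of 2 tested endothelial markers PECAM1 was higher and TEK lower. Their adjusted p lay between 0.00243 and 0.0227 (limma). The part of these cells in the troponin differences was not tested.

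TNNT2 and TNNC1 are also genes of the heart, so cardiac markers are given beside them. The heart factor GATA4 was listed at 0 in the ANKRD9 libraries and at most at 0.00849 FPKM in the pcDNA3.1 libraries, and TBX5 was at or under 0.185 FPKM in every library. NKX2-5 had 0.539, 0.801 and 0.572 FPKM in the ANKRD9 libraries, against 0.230, 0.0859 and 0.0310 FPKM in the pcDNA3.1 libraries, and lay under the filter. NPPA, the atrial natriuretic peptide gene, rose to 5.27 ± 1.37 FPKM with ANKRD9, against 3.14 ± 0.271 FPKM with pcDNA3.1 (SD, n = 3 each; limma, adjusted p = 0.0179). HAND2, which limb tissue also expresses, had 31.3 to 35.9 FPKM with ANKRD9 and 32.5 to 37.4 FPKM with pcDNA3.1. HAND2 made up most of the cardiac sum, which was 36.1 to 43.3 FPKM with ANKRD9 and 35.7 to 40.9 FPKM with pcDNA3.1. The overlap of that sum therefore says little on the other cardiac markers.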

How the data were processed

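The authors deposited one table of FPKM values, with 1 column per library, gene symbols, GRCg6a positions and gene lengths, per the file headers. CASAVA and build GRCg6a (galGal6) are named in the submitters' processing notes; neither the aligner nor the counting program, strand setting or any version is given in the sources used here. Per the labels' protocols, the NEBNext Ultra RNA kit was used. Columns were matched to samples by name, with 0 value columns left over.

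Dividing FPKM times length by the smallest step in a library returned whole reads for 100% of values above 0 (tolerance 0.01). These are not independent molecules. The deposited scaling total differed from the summed reads by 1.02% to 1.45% in the ANKRD9 libraries and by -1.08% to -0.161% in the pcDNA3.1 libraries.

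Genes averaging 1 FPKM or more were tested on log2(FPKM + 1) with limma 3.58.1 in R 4.3.3 (group as the only term, eBayes with trend, Benjamini-Hochberg over all genes tested). Log2 fold changes are on this scale, which understates low genes, and folds are ratios of mean FPKM. The fit was checked on simulated libraries drawn independently, with less spread than the troponin genes had among the pcDNA3.1 libraries. That check therefore says little on how secure the troponin calls are. Chromosome names came from identifiers shared with NCBI's table for assembly GRCg7b (80.7% matched), with no coordinates from it.

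The members and lists were chosen with earlier results of these data known. Named genes are the members, ANKRD9 and up to 4 genes of smallest adjusted p per list. To these were added the 3 genes most correlated with each of the 3 members of largest change. Some, but not all, genes that overlap or adjoin a member are named as well. Other genes (ACTC1, ACTA1, ACTG1, CNN1, MYOG, PPP3CB, NFATC1, NFATC2 and the markers) were named after their values were seen. No 2 libraries of a group agreed within sampling noise, with a chi-square per degree of freedom of at least 2.53. Alternatives covered the pseudocount, filter, scaling, eBayes settings, a replicate block, voom and single libraries.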

Additional observations from a re-analysis of the deposited data

How the results depend on the processing

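The 3 members called higher became 1 without a filter, 5 under quantile scaling, 7 with voom on recovered reads and 1 without both libraries numbered 1, and between 1 and 6 when single libraries were left out. The last 2 kinds of fit use fewer samples, and the fit without a filter adjusts over more genes. Without a filter the SE of TNNT2 was also larger, 0.092 against 0.085. Without both libraries numbered 1 the log2 fold changes of all 7 troponin genes were smaller, with 0.19 against 0.36 for TNNC1. The cause of the changed counts was not tested for any of these fits. No member was called lower under any of the 17 alternatives, and none changed sign. TNNT1 was called under all 17, TNNT2 under 13, TNNC1 under 11, TNNI1 under 5, TNNC2, TNNI2 and TNNT3 under 2 each, TPM1 under 1, and TPM2 and TPM3 under none. Over the 6 gene lists, 25 genes were called, and 14 without both libraries numbered 1. With the replicate number as a replicate block, 2 members were called higher (TNNC1 was lost) and 19 genes of the lists. Same-numbered libraries did not deviate together (r of -0.196, 0.034 and -0.080 across genes). The labels do not say what a shared number means, and a correlation over all genes cannot exclude a shared culture or batch. The fit without both libraries numbered 1 and the scaling to summed reads, under which 4 members were called, were chosen after seeing the data. With 3 libraries a group, intervals of the fast troponin genes spanned both 0 and a log2 difference of 0.49, so neither was distinguishable from their values.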
